A study of Mus musculus with 4 samples.

Results

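Cd28, Ctla4 and Icos lie side by side on mouse chromosome 1 and encode 3 related receptors of T cells. The data described here are the listed windows of 100 bp over each gene with 1000 bp on either side, and over the sequence between the genes. They were chosen by position alone on the mm10 build, from chr1:60745388 to chr1:61001322, and number 219 of the 1048575 windows of the deposited table. Of these, 9 lie over Cd28, 121 between Cd28 and Ctla4, 4 over Ctla4, 58 between Ctla4 and Icos, and 27 over Icos.

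The study compared DNA methylation between wild-type (WT) and PLZFon mice, both C57BL/6, in their natural killer T (NKT) cells. These are T cells whose receptor binds lipid on the CD1d molecule. The cells were sorted fresh from thymus by binding of a CD1 tetramer, and the labels state neither the animals' age nor how many animals were pooled. The transcription factor PLZF is required for NKT cells to develop, and the series title concerns how its acetylation regulates NKT cell differentiation, but no label says what the PLZFon allele is. MeDIP-seq reads sheared DNA that an antibody to methylated cytosine has captured, next to input DNA sequenced without capture. There was 1 MeDIP library and 1 input library per genotype, so every value below compares 2 libraries and no test of genotype could be made. The antibody label goes against the titles for 2 libraries, giving none for the one titled PLZFon MeDIP and an antibody for the one titled WT input. Over all listed windows, the library titled PLZFon MeDIP held 4.22 times the share of reads of its input, and the WT MeDIP library 4.44 times.

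CD28 is the main costimulatory receptor of T cells: it binds CD80 and CD86 on antigen-presenting cells and adds to the signal of the T cell receptor. CTLA4 binds the same ligands more tightly and restrains T cells, partly by removing those ligands from the surface of other cells. ICOS binds a separate ligand, ICOSL, and supports helper T cells and NKT cells after activation. Methylation of CpG dinucleotides at a promoter is commonly associated with a silent gene, whereas methylation within a gene body is found in active genes too.

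Promoters of the region are shown first, because the number of CpGs in a window limits how much methylated DNA it can yield in the pull-down. RefSeq sequences of GRCm38.p6, the assembly of mm10, were matched by symbol for 1 of the 3 receptor genes, Ctla4. Each sequence below is the 250 bases before an annotated start on the + strand, with CpGs in capitals. They are chr1:60908775-60909024 for Ctla4, chr1:60862852-60863101 for Gm38137, chr1:60886839-60887088 for Gm39650 and chr1:60920982-60921231 for Gm34649. The last 3 are long non-coding RNA genes, the first pair of them between Cd28 and Ctla4 and Gm34649 between Ctla4 and Icos.
Ctla4: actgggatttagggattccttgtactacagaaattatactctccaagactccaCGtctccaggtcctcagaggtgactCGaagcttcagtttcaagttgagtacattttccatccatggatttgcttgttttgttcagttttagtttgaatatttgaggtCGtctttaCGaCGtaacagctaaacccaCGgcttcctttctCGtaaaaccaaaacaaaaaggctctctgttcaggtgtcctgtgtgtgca
Gm38137: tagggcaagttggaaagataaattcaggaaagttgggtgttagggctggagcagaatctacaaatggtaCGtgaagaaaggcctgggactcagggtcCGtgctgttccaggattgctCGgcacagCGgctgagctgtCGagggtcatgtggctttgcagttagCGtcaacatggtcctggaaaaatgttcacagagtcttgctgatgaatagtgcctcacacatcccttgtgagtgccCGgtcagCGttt
Gm39650: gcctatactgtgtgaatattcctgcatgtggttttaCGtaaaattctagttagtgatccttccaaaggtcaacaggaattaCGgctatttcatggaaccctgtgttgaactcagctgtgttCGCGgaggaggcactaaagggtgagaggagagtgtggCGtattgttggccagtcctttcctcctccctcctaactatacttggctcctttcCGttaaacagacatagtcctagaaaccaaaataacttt
Gm34649: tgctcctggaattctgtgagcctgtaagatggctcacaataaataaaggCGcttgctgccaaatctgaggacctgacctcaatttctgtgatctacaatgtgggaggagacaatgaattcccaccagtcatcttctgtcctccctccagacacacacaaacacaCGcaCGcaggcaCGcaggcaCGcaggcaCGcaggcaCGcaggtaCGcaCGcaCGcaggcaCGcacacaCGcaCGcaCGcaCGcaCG

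With the 50 bases after the start included, the Ctla4 promoter held 8 CpGs, and none of the 219 listed windows overlapped it. The Gm38137 promoter held 9 CpGs and was overlapped by 4 listed windows, and that of Gm39650 held 7 CpGs with 3 listed windows. The Gm34649 promoter held 19 CpGs, most of them in a run of short repeats, and had 1 listed window. Of 3 further RefSeq promoters of the region, not printed, that of 2310016D23Rik had 3 CpGs and 0 listed windows. A second promoter of Gm38137 had 1 CpG and 0 listed windows, and a second of Gm34649 had 4 CpGs and 2 listed windows. The printed promoters of Ctla4, Gm38137 and Gm39650, similar in CpG number, thus differed in whether any of their windows was listed. Every listed window holds at least 10 MeDIP reads over both libraries. Among 15055 RefSeq promoters of this length in the range of the table, 15.7% overlapped a listed window. The share was 38.5% for promoters with 5 to 9 CpGs, 13% for those with 10 to 19, and 1.59% for those with 20 or more. A window can be missing from the table and still have reads, so the table gives no level for the Ctla4 promoter.

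Total reads per library, recovered from the deposited counts and RPKM values, were 15141449 for WT MeDIP, 10633609 for PLZFon MeDIP, 60683037 for WT input and 50374582 for PLZFon input. A read was counted in about 4 neighbouring windows, so 4 window counts are taken as 1 read. The MeDIP ratio below divides the share of library reads in PLZFon by that in WT. Its 95% interval (exact, Clopper-Pearson) covers counting error only. Differences between animals and duplicate reads are not covered. MeDIP over input is the share of MeDIP reads divided by the share of input reads of the same genotype. It is raised by the listing itself, which asks for MeDIP reads, and is therefore read against other loci of the same table. Among 7667 protein-coding loci with at least 20 MeDIP reads, its median was 4.18 in WT (quartiles 3.56 and 4.84) and 3.97 in PLZFon (3.3 and 4.63).

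The 3 receptor genes took different places among all loci in how strongly their listed windows were pulled down, though their own intervals overlap. By point value, Cd28 stood near the top of all protein-coding loci, Icos above most of them, and Ctla4 near the bottom, in both genotypes. In WT, MeDIP over input was 8.5 (4.92 to 15.2) at Cd28, 5.44 (3.87 to 7.69) at Icos and 2.67 (1.01 to 6.69) at Ctla4. In PLZFon it was 5.98 (2.9 to 12.6) at Cd28, 4.88 (3.24 to 7.34) at Icos and 2.21 (0.623 to 6.75) at Ctla4. The order was the same in both genotypes, but each interval overlapped that of its neighbour in the order. Only the WT interval of Cd28 excludes the median of protein-coding loci in the same genotype, and all the others include it. Against the protein-coding loci, Cd28 lay at the 99.3 percentile in WT and the 94.3 percentile in PLZFon. Icos lay at the 87.6 and 81.5 percentiles, and Ctla4 at the 6.1 and 3.61 percentiles. With 14.2 reads over both MeDIP libraries, Ctla4 did not itself reach the minimum of 20 reads of those loci.

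**Figure D1:**
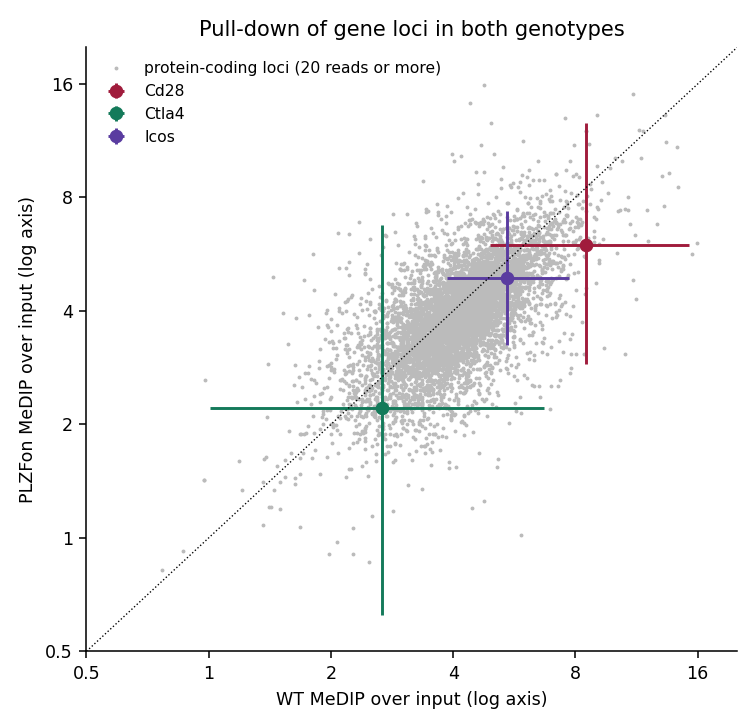
MeDIP over input in WT (x axis) and PLZFon (y axis), both on log axes, for protein-coding loci with at least 20 MeDIP reads (grey points) and for Cd28, Ctla4 and Icos with 95% counting intervals (bars). The dotted line marks equality. Cd28 sits at the right edge of the cloud at 8.5 in WT, Ctla4 near its lower left at 2.67, and the bars of neighbouring genes overlap.

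The CpG content of the listed windows had the same order over the 3 genes, but Icos was low in it among all loci. The authors' CpG factor equalled the number of CpGs that start in a window in 100% of 2642 windows lying inside RefSeq promoters, so it is read here as a CpG number. Its mean was 3.67 at Cd28, 1.85 at Icos and 1.5 at Ctla4, against a median of 2.28 over protein-coding loci. Cd28 lay at the 99.2 percentile of loci by this mean and Ctla4 at the 0.75 percentile. Icos lay at the 6.27 percentile, against the 87.6 percentile by WT MeDIP over input.

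Within the cluster, windows with more CpGs held more MeDIP reads in both genotypes. In WT, MeDIP over input was 3.98 for windows with 1 CpG, 4.26 with 2, 4.84 with 3 to 4 and 8.14 for the 14 windows with 5 or more. In PLZFon the 4 values were 3.55, 3.82, 4.25 and 8.16. The same order held over all listed windows, where the values ran from 3.68 to 6.59 in WT and from 3.57 to 6.03 in PLZFon. The PLZFon over WT ratio in the cluster was 0.929 (0.735 to 1.17), 0.908 (0.714 to 1.15), 1.01 (0.791 to 1.27) and 0.842 (0.58 to 1.21) from the lowest to the highest class. All 4 intervals include equality.

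**Figure D2:**
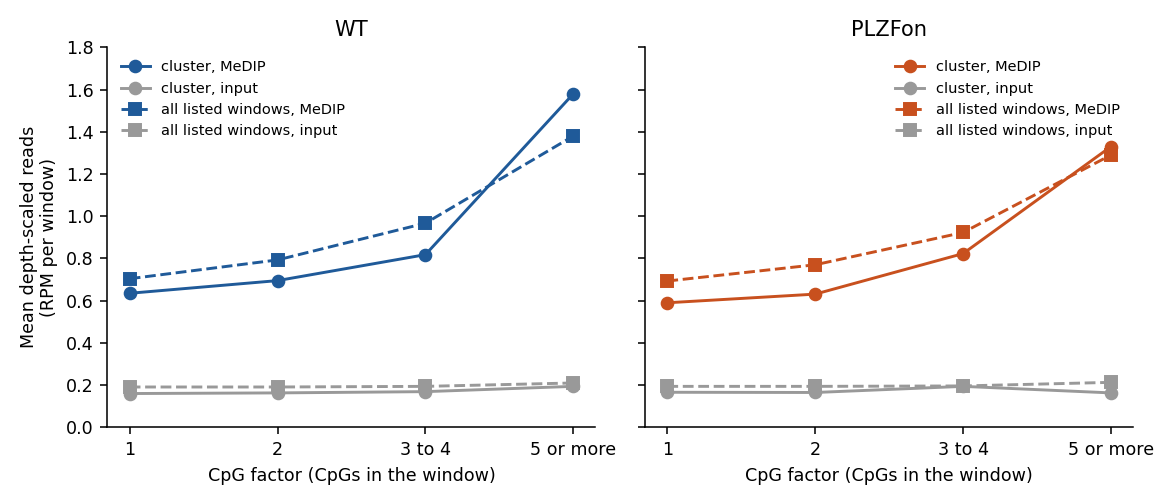
Mean depth-scaled reads per window (RPM, reads per 1000000 library reads) by number of CpGs in the window, for the 219 windows of the cluster (circles, solid lines) and all listed windows (squares, dashed lines), in WT (left) and PLZFon (right), with input in grey. MeDIP reads rise with CpG number from 0.635 to 1.58 RPM in WT and from 0.59 to 1.33 RPM in PLZFon in the cluster, while input stays near 0.2 RPM.

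The region as a whole held 631.5 reads in WT MeDIP and 413.5 in PLZFon MeDIP, which gave a ratio of 0.932 (0.822 to 1.06). The same ratio taken over the complete table was 0.964 (0.963 to 0.966). The input ratio of the region was 1.04 (0.921 to 1.18). The region's interval thus includes both equality and the value of the table. The flanking 300 kb gave a ratio of 0.981 (0.894 to 1.08) below the cluster and 0.871 (0.755 to 1) above it. The nearest protein-coding genes below were Raph1, with a ratio of 0.86 (0.671 to 1.1), and Abi2, with 0.897 (0.568 to 1.4). Those above were Pard3b, with 0.998 (0.924 to 1.08), and Nrp2, with 0.906 (0.797 to 1.03).

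**Figure D3:**
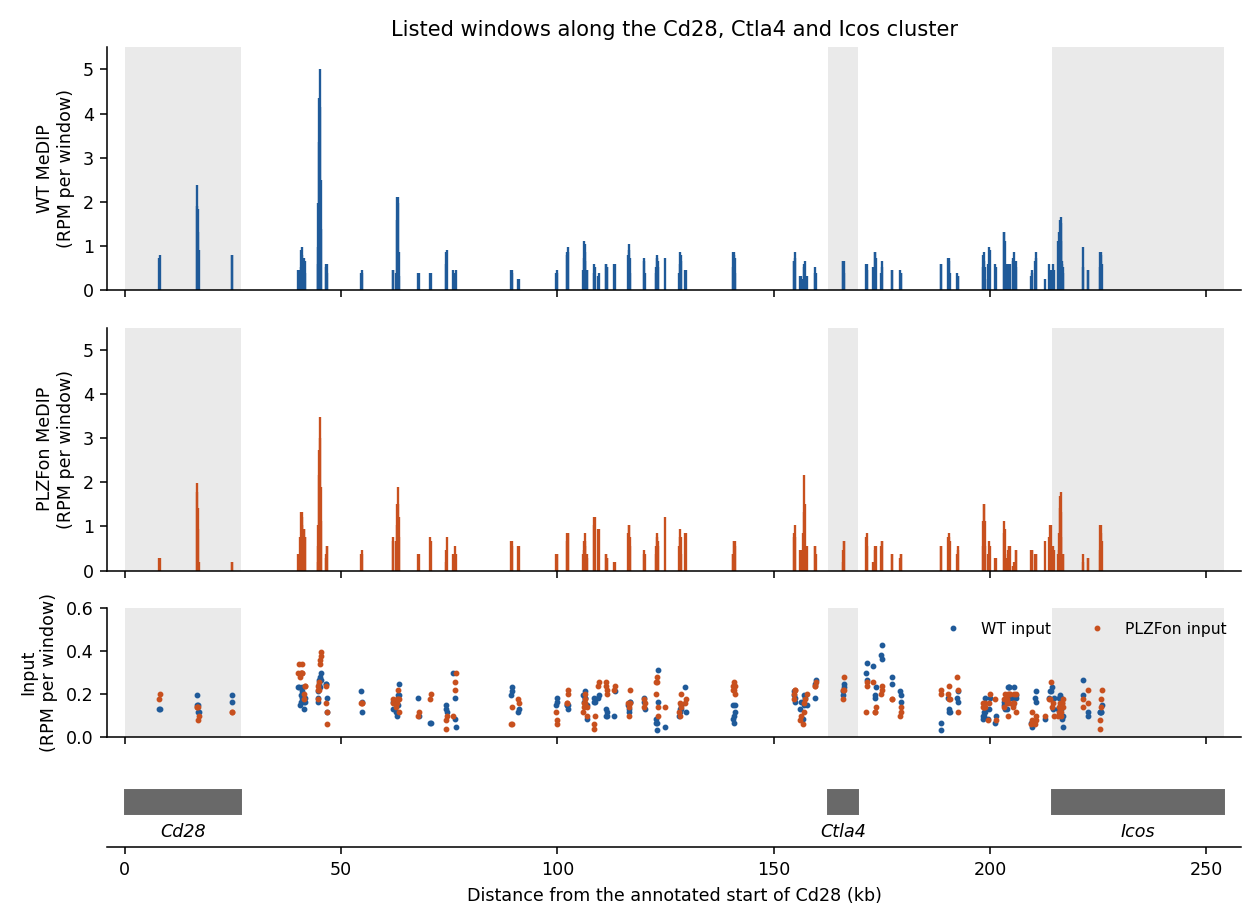
Depth-scaled reads (RPM) in each listed window along the cluster, by distance from the annotated start of Cd28, for WT MeDIP (top), PLZFon MeDIP (below it) and both inputs (lowest panel of values), with the 3 genes as boxes and grey bands. Positions without a bar are unlisted and may still have reads. The tallest bars in both genotypes, 5.02 RPM in WT and 3.48 RPM in PLZFon, stand about 45 kb from the start of Cd28, inside the non-coding gene 2310016D23Rik.

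Cd28 (chr1:60746388-60773359) had the lowest PLZFon over WT ratio of the 3 receptor genes. Of its 9 listed windows, 5 had at least 10 reads in WT alone and under 10 in PLZFon, so their listing favours a ratio below equality. Summed over windows, the counts were 174 in WT MeDIP and 77 in PLZFon MeDIP, against 82 in WT input and 61 in PLZFon input. That is 43.5 reads in WT and 19.2 in PLZFon, a ratio of 0.63 (0.348 to 1.1), or -0.67 on the log2 scale. The input ratio was 0.896 (0.43 to 1.83). The MeDIP interval includes equality, so the lower value of PLZFon was not larger than counting error. The ratio lay at the 2.21 percentile of protein-coding loci, with 169 loci lower, and Cd28 did not pass the rule of size. To pass, a locus needed 20 or more reads in the 2 MeDIP libraries together, a 2-fold or larger difference either way, and an interval without equality. Over all protein-coding loci with 20 reads, 34 of 7667 passed it, or 0.443%.

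The reads over Cd28 fell into 3 stretches, a stretch being listed windows whose starts lie no more than 300 bp apart, a definition chosen after the values were seen. The middle stretch, chr1:60763001-60763500, held 73% of the WT and 87% of the PLZFon window counts of the gene. Its 5 windows held 29, 36, 28, 20 and 14 WT MeDIP reads and 19, 21, 15, 10 and 2 PLZFon MeDIP reads, in order along the chromosome. Both genotypes thus peaked in the same window, chr1:60763101-60763200, which has 9 CpGs. There the depth-scaled level was 2.38 RPM in WT and 1.97 RPM in PLZFon, a ratio of 0.831 (0.461 to 1.46). MeDIP over input in that window was 12 (6.11 to 25.4) in WT and 14.2 (5.82 to 39.6) in PLZFon. Over the 2142 windows of the table with 9 CpGs it was 9.14 in WT and 8.54 in PLZFon. Whole-stretch ratios were 0.751 (0.389 to 1.4) for MeDIP and 0.821 (0.279 to 2.28) for input.

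The outer stretches of Cd28 held few reads and carried the lowest values. The pair of windows at chr1:60754301-60754500, the listed windows nearest the annotated start and 7.91 kb from it, held 11 and 12 WT reads and 3 reads each in PLZFon. The pair at chr1:60771001-60771200 held 12 WT reads each and 2 PLZFon reads each. In all 4 windows WT alone reached 10 reads, the least that listed windows hold, and each total was 14 or 15. Stretch ratios were 0.371 (0.0221 to 2.45) and 0.237 (0.00516 to 1.96), with input ratios of 1.43 (0.299 to 7.31) and 0.657 (0.104 to 3.21). With only the 4 windows of at least 20 reads, all in the middle stretch, MeDIP over input at Cd28 was 12.2 in WT and 12.3 in PLZFon and the ratio was 0.819.

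Ctla4 (chr1:60909025-60915832) is the shortest of the 3 genes and had the fewest listed windows, all 4 in 1 stretch, chr1:60912301-60912700, beginning 3.28 kb from the annotated start. WT MeDIP reads in these windows were 10, 10, 10 and 6, and PLZFon MeDIP reads were 2, 5, 7 and 7. WT input reads were 12, 13, 15 and 14 and PLZFon input reads 9, 11, 14 and 11. The inputs were even across the stretch and, unlike in the peak window of Cd28, the raw MeDIP reads of both genotypes were no more numerous than the input reads of the same window. The input libraries were deeper, however. Scaled for depth, MeDIP over input of the locus was 2.67 (1.01 to 6.69) in WT and 2.21 (0.623 to 6.75) in PLZFon. The locus held 9 reads in WT and 5.25 in PLZFon, a ratio of 0.831 (0.225 to 2.72), and the inputs gave 1 (0.413 to 2.39). A difference of the size given for Cd28 would not have been detectable at this depth. The window with the most MeDIP reads, chr1:60912501-60912600, had 17 over both libraries, as many as 50.7% of all listed windows have or exceed, and 3 CpGs.

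Icos (chr1:60960773-61000322) had 27 listed windows, all of them within or just before the first part of the gene in coordinate order. No window was listed from chr1:60972201 to chr1:61014700, which leaves the last 28.1 kb of the gene's 39.5 kb uncovered. That gap of 42.5 kb is longer than most: 0.436% of all gaps between listed windows are as long or longer, and these hold 7.92% of the sequence. The window over the annotated start, chr1:60960701-60960800, had 1 CpG, 7 WT and 4 PLZFon MeDIP reads, and 14 WT and 7 PLZFon input reads. MeDIP over input there was 2 (0.684 to 5.31) in WT and 2.71 (0.581 to 10.6) in PLZFon, lower than at the main stretch of the gene, though the intervals overlap.

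That main stretch, chr1:60962101-60963300, had 12 windows and held 58.7% of the WT and 51.7% of the PLZFon window counts of Icos. It held 49 reads in WT and 26.8 in PLZFon, a ratio of 0.777 (0.466 to 1.27), with an input ratio of 1.01 (0.532 to 1.89). WT MeDIP over input was 8.02 (4.84 to 13.6) and that of PLZFon 6.18 (3.35 to 11.6), at a mean of 1.75 CpGs per window. The window with the most reads, chr1:60962601-60962700, had 5 CpGs, 25 WT and 19 PLZFon MeDIP reads, and a ratio of 1.08 (0.563 to 2.05). The second, chr1:60962401-60962500, had 1 CpG, 24 WT and 15 PLZFon reads, and a ratio of 0.89 (0.434 to 1.77). Along the stretch the ratio was 0.335 (0.082 to 1.03) in the first window and close to equality at the centre. Beyond the centre it was low again, 0.427 (0.0755 to 1.66) at chr1:60962901-60963000, and 0.949 (0.197 to 4) in the last window. The interval of every window of the stretch includes equality, and neighbouring windows share reads, so no trend is read from them. For the whole of Icos the window counts were 334 in WT MeDIP and 207 in PLZFon MeDIP, against 246 and 201 in the inputs. The locus had a ratio of 0.882 (0.612 to 1.26), at the 27.3 percentile of loci, and the input ratio 0.984 (0.664 to 1.45).

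Listed windows were fewer per kb over all 3 genes than at the median locus, at 0.311 per kb for Cd28, 0.454 for Ctla4 and 0.65 for Icos. The median over 9572 protein-coding loci was 1.23 per kb (quartiles 0.524 and 2.01), and 11.4% of loci had no listed window at all. The 3 genes lay at the 17.7, 22.6 and 29.3 percentiles, Icos within the quartiles and the others below them. Between Ctla4 and Icos the density was 1.36 per kb, more than over any of the genes, and between Cd28 and Ctla4 it was 0.906 per kb. Other gaps of over 10 kb lay at the start of Cd28 (10.3 kb), from the end of Cd28 into 2310016D23Rik (15.2 kb), and at 3 places between Cd28 and Ctla4 (12.8, 10.8 and 13.5 kb).

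The sequence between Cd28 and Ctla4 held the most MeDIP reads of the cluster, at a place that belongs to none of the 3 receptors. It lay at chr1:60790901-60791800 within 2310016D23Rik, a long non-coding RNA gene, where 9 windows held 92.2 reads in WT and 43 in PLZFon. The top window, chr1:60791401-60791500, had 6 CpGs, 76 WT and 37 PLZFon MeDIP reads, and 14 WT and 17 PLZFon input reads. Only 0.432% of listed windows have as many MeDIP reads. Its ratio was 0.693 (0.455 to 1.04), with MeDIP over input of 21.8 (12.2 to 41.7) in WT and 10.3 (5.66 to 19.5) in PLZFon. Its neighbours, with 95 reads each, were chr1:60791301-60791400, with 66 WT and 29 PLZFon reads and a ratio of 0.626 (0.39 to 0.982), and chr1:60791501-60791600, with 63 and 32 reads and a ratio of 0.723 (0.457 to 1.12). Over the stretch MeDIP gave 0.664 (0.451 to 0.963) and input 1.2 (0.718 to 2.02), so that the MeDIP interval lay below equality without reaching a 2-fold difference. WT MeDIP over input of the stretch was 11.4 (7.55 to 17.5), against 11.6 (5.68 to 25.5) at the middle stretch of Cd28. In PLZFon the values were 6.27 (3.88 to 10.2) and 10.6 (4.24 to 29.2).

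The one place past the rule of size also lay in this sequence, 5.53 kb before the annotated start of Ctla4, in no annotated gene, and was higher in PLZFon. The window chr1:60903401-60903500 had 4 CpGs, 9 WT and 23 PLZFon MeDIP reads, 0.594 and 2.16 RPM, and a ratio of 3.64 (1.62 to 8.94). Input reads there were 12 in WT and 8 in PLZFon, a ratio of 0.803 (0.285 to 2.14). Its stretch, chr1:60903101-60903600, held 7.75 reads in WT and 15.5 in PLZFon, a ratio of 2.85 (1.13 to 7.83), with an input ratio of 0.847 (0.26 to 2.58). All 4 windows of the stretch had more PLZFon than WT reads although the PLZFon library was the smaller. These windows share reads, so they are not separate observations. In chr1:60903201-60903300 and chr1:60903401-60903500 PLZFon alone reached 10 reads, so their listing favours a ratio above equality. Of the cluster's 64 windows with at least 20 reads, 1 passed, beside 13494 of 409114 in the table, or 3.3%. Of its 17 stretches with at least 20 reads, 1 passed, beside 1558 of 80450, or 1.94%. Both counts rest on the same reads at 1 place. With scaling by listed windows or by TMM factors, 3 more windows passed, all higher in PLZFon: 60903201, 60903501 (both in the same stretch) and 60945001 within Gm34649. Both scalings raise every PLZFon over WT ratio, so the direction of the added windows follows from them.

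Of the remaining stretches between Cd28 and Ctla4, that over the pseudogene Gm11581 held the most reads. At chr1:60809101-60809800 it held 35.5 reads in WT and 22.8 in PLZFon, a ratio of 0.913 (0.514 to 1.59), with WT MeDIP over input of 8.37 (4.57 to 15.9). At chr1:60786901-60788100, also in 2310016D23Rik, MeDIP and input moved together, with ratios of 1.5 (0.829 to 2.71) and 1.49 (0.873 to 2.58). The 3 stretches with the most reads, in 2310016D23Rik, Icos and Gm11581, together held 25.8% of the MeDIP reads of the cluster. The whole sequence had ratios of 0.996 (0.845 to 1.17) for MeDIP and 1.15 (0.97 to 1.35) for input.

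Between Ctla4 and Icos the values were the weakest outside Ctla4, with MeDIP over input of 3.47 in both WT (2.73 to 4.39) and PLZFon (2.6 to 4.63). The sequence held 136 reads in WT and 85.8 in PLZFon, a ratio of 0.898 (0.677 to 1.19), equal to its input ratio of 0.896 (0.699 to 1.15) within the intervals. Its windows with the most reads were chr1:60949601-60949700, with 20 WT and 12 PLZFon reads, and, with 29 reads each, chr1:60944901-60945000 (13 WT, 16 PLZFon) and chr1:60949501-60949600 (20 WT, 9 PLZFon). Their ratios were 0.854 (0.381 to 1.84), 1.75 (0.79 to 3.96) and 0.641, in that order. The listed window of the CpG-rich Gm34649 promoter printed above, chr1:60921201-60921300, had 9 CpGs, like the peak window of Cd28. It held 6 MeDIP reads in each genotype, against 23 WT and 10 PLZFon input reads. MeDIP over input was 1.05 (0.348 to 2.64) in WT and 2.84 (0.849 to 8.63) in PLZFon. The WT interval lies wholly below that of the Cd28 window, 6.11 to 25.4, at the same number of CpGs, whereas in PLZFon it overlaps that window's 5.82 to 39.6. The lowest stretch with at least 10 reads was chr1:60951601-60952500, with 15.5 reads in WT and 3.75 in PLZFon and a ratio of 0.344 (0.0792 to 1.1). In most of its windows WT alone reached 10 reads, so their listing favours a ratio below equality.

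**Figure D4:**
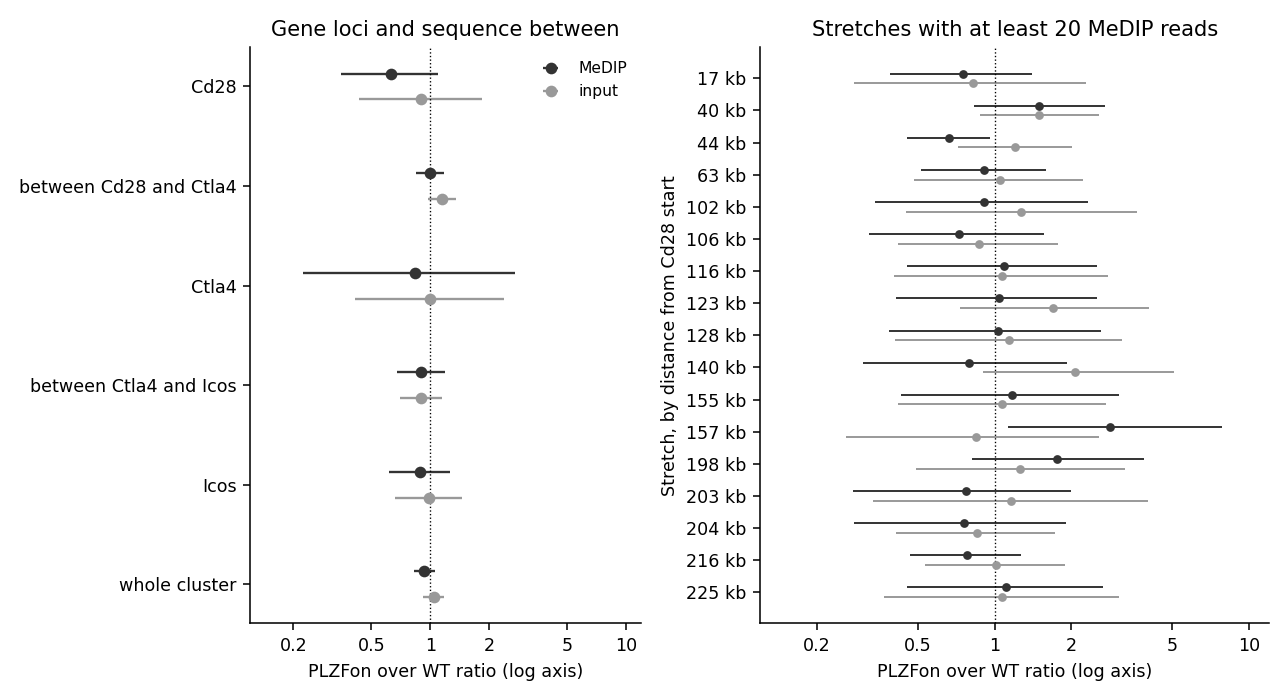
PLZFon over WT ratios (log axis) with 95% counting intervals for MeDIP (black) and input (grey), by gene locus and sequence between the genes (left) and by stretch with at least 20 MeDIP reads, labelled by distance from the annotated start of Cd28 (right). All 5 loci and the whole cluster include equality. Of the 17 stretches, the one at 44 kb lies below equality at 0.664 and the one at 157 kb above it at 2.85. In the table, 3.16% of stretches with as many reads have an interval without equality.

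Cut into bins of 10 kb, the region gave no bin past the rule, beside 444 of 60900 bins in the table, or 0.729%. Of the 18 bins with at least 20 reads, 12 had a ratio below equality, beside 56.2% of such bins in the table, and the median was 0.971, against 0.965 over the bins of the table. The highest bin, chr1:60900001-60910000, holds the window that passed and the start of Ctla4, and its ratio was 1.68 (0.981 to 2.9). The lowest, chr1:60950001-60960000, lies before Icos and had 0.648 (0.363 to 1.12). The bin chr1:60790001-60800000, with the peak in 2310016D23Rik, had 0.678 (0.47 to 0.967), 1 of 18 with an interval below equality, against 2.06% in the table.

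Among single windows, 129 of 219 (58.9%) had a ratio below equality, beside 53.8% of all listed windows. The count was 9 of 9 over Cd28, 3 of 4 over Ctla4, 17 of 27 over Icos, 63 of 121 between Cd28 and Ctla4 and 37 of 58 between Ctla4 and Icos. Neighbouring windows share reads, and some are listed through WT alone (5 of 9 over Cd28, 3 of 4 over Ctla4, 7 of 27 over Icos, 291212 of 1048575 in the table). Windows listed through PLZFon alone were not counted. The counts of windows below equality therefore support no difference. The authors' relative methylation score had medians of 0.63 in WT and 0.5 in PLZFon over the windows of Cd28, 0.695 and 0.575 over Ctla4, and 0.68 and 0.6 over Icos. Over the whole cluster the medians were 0.62 and 0.56. The score follows raw reads without scaling for depth: at chr1:60787101-60787200, 14 reads in each MeDIP library gave 0.66 in both. Lower medians in the smaller PLZFon library are therefore not read as lower methylation. In the authors' deposited table, 0 of the 219 windows had an adjusted p-value below 0.05 in edgeR's test, which compares the 2 libraries and not the genotypes, and 3 had an unadjusted p-value below 0.05. The authors' deposited table gives these as chr1:60903401-60903500 (log2 fold change 1.90, p = 8.29e-04, adjusted p = 0.752), chr1:60951801-60951900 (-3.01, p = 0.0225) and, in Cd28, chr1:60763401-60763500 (-2.19, p = 0.0352). The shares of all listed windows with such p-values are not given here. Neither count of p-values is therefore read as a feature of the cluster.

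By likeness over MeDIP over input in both genotypes and listed windows per kb, on a log2 scale over the 4 libraries, the loci nearest Cd28 were Amy2a4, Amy2a2 and Tex47, at distances of 0.184, 0.261 and 0.356. Their PLZFon over WT ratios were 0.545, 0.561 and 1.12, and Amy2a4 and Amy2a2 are near-identical amylase copies whose reads may be shared. Likeness uses MeDIP over input of both genotypes, so a similar ratio is partly built into the match. Those nearest Ctla4 were Pramel38, Adra1d and Il1rn, at 0.0681, 0.122 and 0.142, with ratios of 0.888, 1.05 and 1.13. Those nearest Icos were Fap, Emsy and Trpc4, at 0.0577, 0.068 and 0.0722, with ratios of 0.781, 0.809 and 0.923. The loci nearest Cd28 were thus farther from it than those nearest Ctla4 and Icos were from these genes.

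Other genes of costimulation were read in the same way. Of a list of 17 genes of the CD28 and B7 family and other co-receptors, 6 lay in the range of the table and 4 of these had at least 20 reads, and none passed the rule. Since only 34 of 7667 protein-coding loci (0.443%) passed it, none passing in lists this short says little about their genes. The median ratio was 0.9, Cd28 and Icos included, against 0.959 over all protein-coding loci. Vtcn1, an inhibitory B7 ligand, had 0.918 (0.772 to 1.09) and Lag3, a CD4-related inhibitory receptor that binds MHC class II, had 1.03 (0.722 to 1.46). Pdcd1, which encodes the inhibitory receptor PD-1, had no listed window. Of the 12 costimulators of the TNF receptor and ligand families, 8 had at least 20 reads and none passed, with a median of 1.02. The largest were Tnfrsf14, which encodes the receptor HVEM, at 1.42 (0.839 to 2.42), and Cd40, the receptor of CD40 ligand, at 0.754 (0.539 to 1.04).

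The kinases, adaptors and transcription factors that act below CD28 gave 9 of 21 genes with at least 20 reads, none past the rule, with a median of 1.02. For 2 of them the interval lay above equality, as it did for 95 of the 7667 protein-coding loci, or 1.24%. Bcl10, an adaptor on the way to NF-kB, had 121.5 reads in WT and 116 in PLZFon, a ratio of 1.36 (1.04 to 1.77), with an input ratio of 0.951 (0.713 to 1.26). Akt2, a kinase below PI3K, had a ratio of 1.25 (1.05 to 1.49), but its input ratio was 1.26 (1.1 to 1.44). Of the 6 genes of CTLA4 traffic and transcription, 3 had at least 20 reads and none passed, with a median of 1.06. Ikzf2, which encodes the transcription factor Helios, had 1.2 (1.02 to 1.42), with an input ratio of 1.08 (0.916 to 1.28), and Dennd1b, a regulator of endocytic traffic, had 1.06 (0.924 to 1.22).

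**Figure D5:**
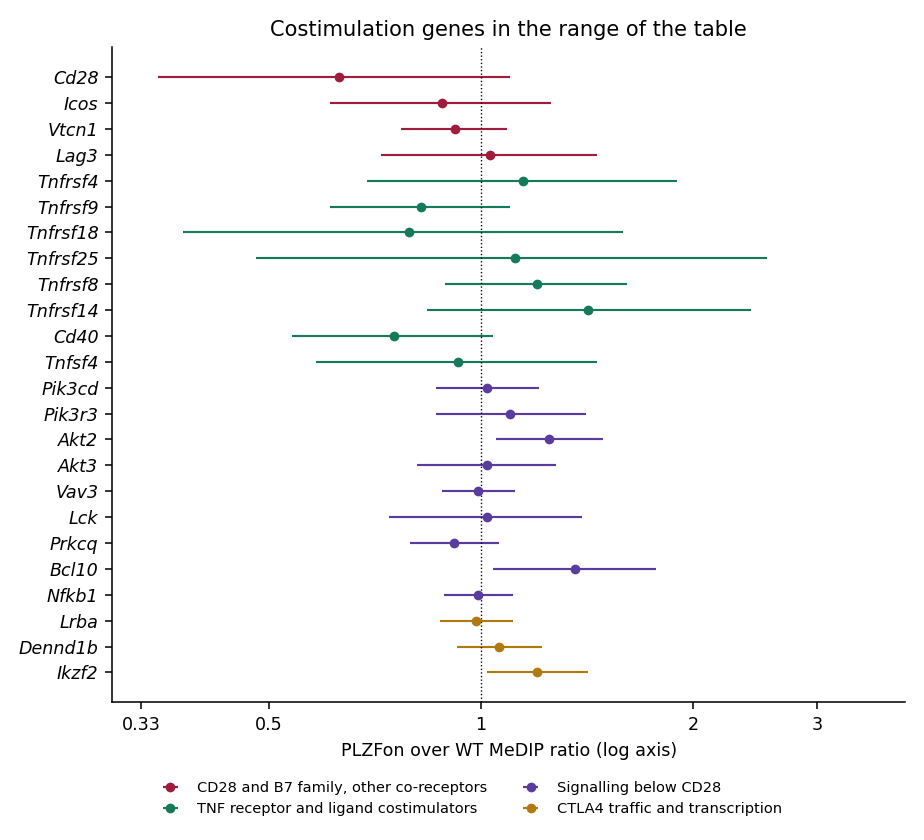
PLZFon over WT MeDIP ratio (log axis) with 95% counting interval for the costimulation genes reported here, each with at least 20 MeDIP reads, coloured by list. Cd28, at 0.63, is the lowest of the genes shown and has a wide interval, while Bcl10, Akt2 and Ikzf2 lie above equality with their intervals. The same holds for 95 of 7667 protein-coding loci (1.24%). For Akt2 the input ratio, not drawn, was also above equality at 1.26 (1.1 to 1.44).

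MeDIP measures no transcript, so the identity of the sorted cells could not be checked by expression. As a description, markers of T cells (6 loci with at least 20 reads) had WT MeDIP over input of 2.16 to 4.93, of B cells (4 loci) 2.8 to 5.72, and of myeloid cells (3 loci) 3.21 to 4.56, ranges that overlap. Median ratios were 0.97, 0.802 and 1.1 for these lists, and no NK cell marker reached 20 reads. Their part in the values of the cluster was not tested.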

How the data were processed

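MeDIP and input DNA of thymic NKT cells from WT and PLZFon mice were sequenced, 1 library per group, grouped by title. Per the labels' protocols, sonication gave fragments with a median of 180 to 230 bp. BWA, edgeR and the mm10 build are named per the submitters' processing notes, with versions not given in the sources used here. The deposited table lists raw read counts per window of 100 bp for each library, and the RPKM values the authors computed from them. It also holds the authors' relative methylation score and CpG factor, a score of CpG content from 1 to 20, and the authors' edgeR log2 fold changes, along with the deposited p-values, raw and adjusted. Listed windows all had at least 10 MeDIP reads, as tested on the table, which ends within chromosome 7. Regions beyond it were not analysed here, and 7 columns were not used.

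Library totals were recovered from deposited counts and RPKM values and were the main scaling. Depth ran from 10633609 to 60683037 reads. The squared difference between windows, scaled by their reads, rose more slowly beyond a distance of 4 windows (WT input 1.12 at 3, 1.65 at 4 and 1.9 at 5 windows). A read was therefore taken to be counted in 4 windows, which is an approximation. Ratios carry exact 95% intervals, and no p-value was computed, since no group was replicated. The rule of size was tested on simulated data. Named windows were, for each gene and each sequence between genes, the 2 with the most MeDIP reads, those past the rule and those nearest the gene start. Named bins were those past the rule, or the highest and lowest. Of other genes, the 2 nearest on each side, the 2 largest ratios of each list (with at least 20 reads) and the 3 loci most like each member were named. Further windows, stretches and list genes were named after their values were seen. Of the signalling list, 1 gene is not reported here and is left out of its counts. Gene spans came from RefSeq (GRCm38.p6), without exons or strand. Members, lists and rules were chosen with earlier results of these data known. Alternatives were scaling by listed windows, by TMM factors and within CpG factor classes, flanks, read minimums, windows per read, bin size, ratio minimum and leaving out windows of 60 or more input reads. Tools were Python 3.11.15, numpy 2.4.6, pandas 2.3.3, scipy 1.17.1, matplotlib 3.10.9, R 4.3.3 and edgeR 4.0.16 (TMM factors only).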

Additional observations from a re-analysis of the deposited data

How the results depend on the processing

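Of 110 alternative values over 22 results, 100 stayed within the counting interval of the main value, or within 1.5 times a main count, and 10 moved. Some of these values could not move. A MeDIP ratio does not depend on the number of windows in which a read is counted. No window of the cluster had enough input reads to be left out for raised input. The number of values that stayed is therefore not read as a measure of stability. With only windows of at least 20 MeDIP reads, the input ratio between Ctla4 and Icos was 1.24, and MeDIP over input at Icos was 8.14 in WT and 8.32 in PLZFon. Listed windows per kb were then 0.138 for Cd28, 0 for Ctla4 and 0.265 for Icos. A stricter read minimum selects windows by their MeDIP reads, so higher MeDIP over input and fewer windows follow from its construction. It left Ctla4 with no window and hence no ratio. Windows past the rule of size numbered 4 with scaling by listed windows, 4 with TMM factors, 3 with scaling within CpG factor classes and 2 with a ratio of at least 1.5, against 1. The shares of all listed windows that passed under these settings are not given here. The larger counts are therefore not read as a feature of the cluster. Under the 3 scalings all were higher in PLZFon. These scalings raise the PLZFon over WT ratio of every window of the cluster, so they can add only windows higher in PLZFon. At chr1:60903401-60903500 the ratio rose from 3.64 to 3.77, 3.77 and 3.85. With the lower ratio 1 window was higher (chr1:60903401-60903500) and 1 lower (chr1:60791301-60791400).

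The MeDIP ratio ran from 0.63 to 0.819 at Cd28, from 0.831 to 0.924 at Ctla4 and from 0.81 to 0.915 at Icos over the alternatives that gave a value. In the sequences between the genes it lay on both sides of equality, from 0.941 to 1.03 and from 0.898 to 1.1, as did the input ratio between Ctla4 and Icos. The counts of bins and of costimulation loci past the rule stayed at 0. Depth limits the values most at Ctla4, where 14.2 MeDIP reads leave an interval from 0.225 to 2.72. No paired analysis was possible because each group has 1 library.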
